A study of Mus musculus with 28 samples.

Results

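The 36 genes described here belong to the integrated stress response and the unfolded protein response. They were chosen by symbol from a fixed list, drawn up with earlier results of these data known. All 36 were found among the 24079 rows of the count table and passed the filter on low counts. Of them, 23 form the integrated stress response list and 13 the unfolded protein response list, and the lists are kept apart throughout. RNA was sequenced in 28 libraries of mouse embryonic fibroblasts (strain C57BL/6x129Sv) transformed with RAS and DNP53, in a study of cyclin D1 and procaspase-3. Every line is a single clone, and what the clones share, including the transforming genes, cannot be told apart from the responses below.

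Cyclin D1 carried a tag (labelled Ctag) in clones 12 and 14. Each of these gave 1 library without treatment, 1 after overnight leptomycin B at 20 ng/mL (LMB, an inhibitor of the nuclear exporter XPO1), and 1 after overnight transfection with each of 6 siRNAs. The control siRNA is labelled SCR. The FLAG and HA siRNAs target epitope sequences of the tag, and those labelled Qiagen, Nature and Life target cyclin D1 itself. Clones 18 and 25, with untagged cyclin D1, were each sequenced once after SCR, FLAG and HA siRNA and never without transfection. Clone 18 was also given an mCherry construct (mCherry/PURO) or one with both epitopes (FLAG-mCherry-HA/PURO). Each construct has 2 libraries with HA siRNA and 1 with FLAG siRNA. For clone 12, the labels of the untreated and leptomycin B samples carry a plate date that the siRNA samples lack, so day and transfection cannot be told apart there. No library received the transfection reagent alone. Nothing in the labels says that the libraries of a clone came from separate cultures, so p-values measure only the spread between these samples.

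The integrated stress response is run by kinases, among them PERK (Eif2ak3) and GCN2 (Eif2ak4), that phosphorylate the initiation factor eIF2α (Eif2s1). General translation then falls while translation of the transcription factor ATF4 rises, and ATF4 induces genes for amino acid synthesis and uptake as well as feedback and death genes such as Ddit3 (CHOP) and Ppp1r15a (GADD34). The unfolded protein response is driven by PERK, IRE1 (Ern1) with its substrate XBP1, and ATF6, and it induces the chaperones and degradation factors of the endoplasmic reticulum. ATF4 is controlled largely in translation, and XBP1 by splicing, which counts per gene do not show.

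The promoters are shown because they carry the letters by which the lists are usually set apart. RefSeq sequence of GRCm38.p6, the 250 bases before each transcript start listed there, was matched for 34 of the 36 members (Slc7a5 and Atf6 had no entry). Some listed starts lie inside the annotated gene. The endoplasmic reticulum stress element was searched on both strands as CCAAT, 9 bases, CCACG. It lay in 5 of 8 chaperone promoters (62.5%), in 0 of 22 of the integrated stress response list and in 35 of all 27025 promoters (0.13%). The following windows hold it, with its letters in capitals, read along the gene's strand.

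Hspa5, chr2:34772005-34772063, plus strand: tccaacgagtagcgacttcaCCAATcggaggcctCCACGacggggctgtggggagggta

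Hsp90b1, chr10:86705618-86705676, minus strand: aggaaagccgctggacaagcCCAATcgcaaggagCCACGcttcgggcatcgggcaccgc

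Calr, chr8:84847055-84847113, minus strand, element reversed: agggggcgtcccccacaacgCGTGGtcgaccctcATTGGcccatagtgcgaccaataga

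Dnajc3, chr14:118937807-118937865, plus strand: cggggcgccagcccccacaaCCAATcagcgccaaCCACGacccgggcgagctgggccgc

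Canx, chr11:50325780-50325838, minus strand: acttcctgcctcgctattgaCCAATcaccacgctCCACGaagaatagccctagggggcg

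A core of the C/EBP-ATF response element, TGATGNAA on either strand, lay in 6 of 22 promoters of the integrated stress response list (27.3%), in Herpud1 alone of 12 on the other list (8.33%), and in 1056 of all promoters (3.91%). Its 6 holders were Asns, Atf3, Chac1, Nupr1, Slc7a11 and Vldlr. In Slc7a11 and Vldlr the window with the core belongs to a start inside the annotated gene, not to its outermost start. The next windows, with its letters in capitals, belong to genes that moved differently below, and a match is only a description.

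Asns, chr6:7693210-7693252, minus strand: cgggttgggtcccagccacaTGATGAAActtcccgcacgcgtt

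Atf3, chr1:191183416-191183463, minus strand: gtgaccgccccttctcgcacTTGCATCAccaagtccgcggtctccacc

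Nupr1, chr7:126625553-126625600, minus strand: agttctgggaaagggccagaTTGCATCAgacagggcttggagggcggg

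No member's window held both elements. Another motif, TGACGTGG, was in 0 members and in 163 of all promoters (0.603%).

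Total counts ran from 26558256 to 81512769 per library. Ccnd1, which checks the labels, stood at 1130 and 1290 CPM (counts scaled to library size with TMM factors) with SCR siRNA in clones 12 and 14, and between 50.1 and 329 CPM with the 5 targeting siRNAs. All 8 fibroblast markers exceeded a mean of 1 CPM, and their sum ran from 4810 to 11700 CPM, led by Vim (mean 5700 CPM). Single markers were nearly absent from some libraries, with lowest values of 0.292 CPM for Col1a1, 0.201 for Col1a2 and 0 for Thy1. The summed epithelial markers ran from 87.4 to 1960 CPM, led by Krt18, while the 3 endothelial markers summed to at most 1.46 CPM. Immune markers summed to at most 5.6 CPM and neural markers to at most 21.4 CPM. SCR clone 12 was the deepest library and yet detected the fewest genes (14132). The ribosomal RNA precursor Rn45s exceeded 2% of counts in HA clone 12, Nature clone 14, Life clone 14 and 1 mCherry library with HA siRNA.

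Per kilobase of exon, 3 of the chaperones were the most abundant members. Mean RPKM over the 28 libraries was 429 for Hsp90b1, 419 for Calr and 355 for Hspa5, which encodes the chaperone BiP. The serine synthesis enzymes Phgdh and Psat1 stood at 280 and 147 RPKM and Atf4 at 109. Other chaperones were less abundant, down to 9.71 RPKM for Dnajb9. The lowest members were Sesn2 (2.70), Vldlr (2.71), Eif2ak3 (3.56) and Ern1 (3.83 RPKM).

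Transfection was compared with no treatment by setting the mean of the 6 siRNAs against the untreated cells of clones 12 and 14. In this mean 6 of 8 chaperones of the endoplasmic reticulum and 4 of 6 stress transcription factors rose. Because 5 of the 6 siRNAs target cyclin D1 or its tag, the mean cannot tell transfection from targeting. With SCR siRNA alone, described below, 2 of 8 chaperones and 3 of 6 transcription factors rose. Of the 5 amino acid synthesis genes 2 fell and 0 rose, and of the 3 transporter genes 1 rose and 1 fell. Of the 36 members 14 rose (38.9%) and 6 fell (16.7%), 20 in all (55.6%), at an edgeR adjusted p under 0.05. Over all 15099 genes tested, 11.6% rose and 17% fell, 28.6% in all. The share of members that fell is therefore near the background and the share that rose is above it. Since the list was chosen with earlier results of these data known, this difference is only a description. The median log2 fold change was 0.55 for the 13 unfolded protein response genes and -0.01 for the 23 integrated stress response genes, against -0.004 for all genes. Epithelial markers summed to 970 CPM in untreated clone 14 and to 1070 to 1960 CPM in its siRNA libraries, and fibroblast markers to 4810 and 5950 to 8420 CPM. In clone 12 the epithelial sum was 122 CPM untreated and 87.4 to 229 with siRNA, and the fibroblast sum 9270 and 9680 to 11700 CPM. The part of these shifts in the results was not tested.

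**Figure D1:**
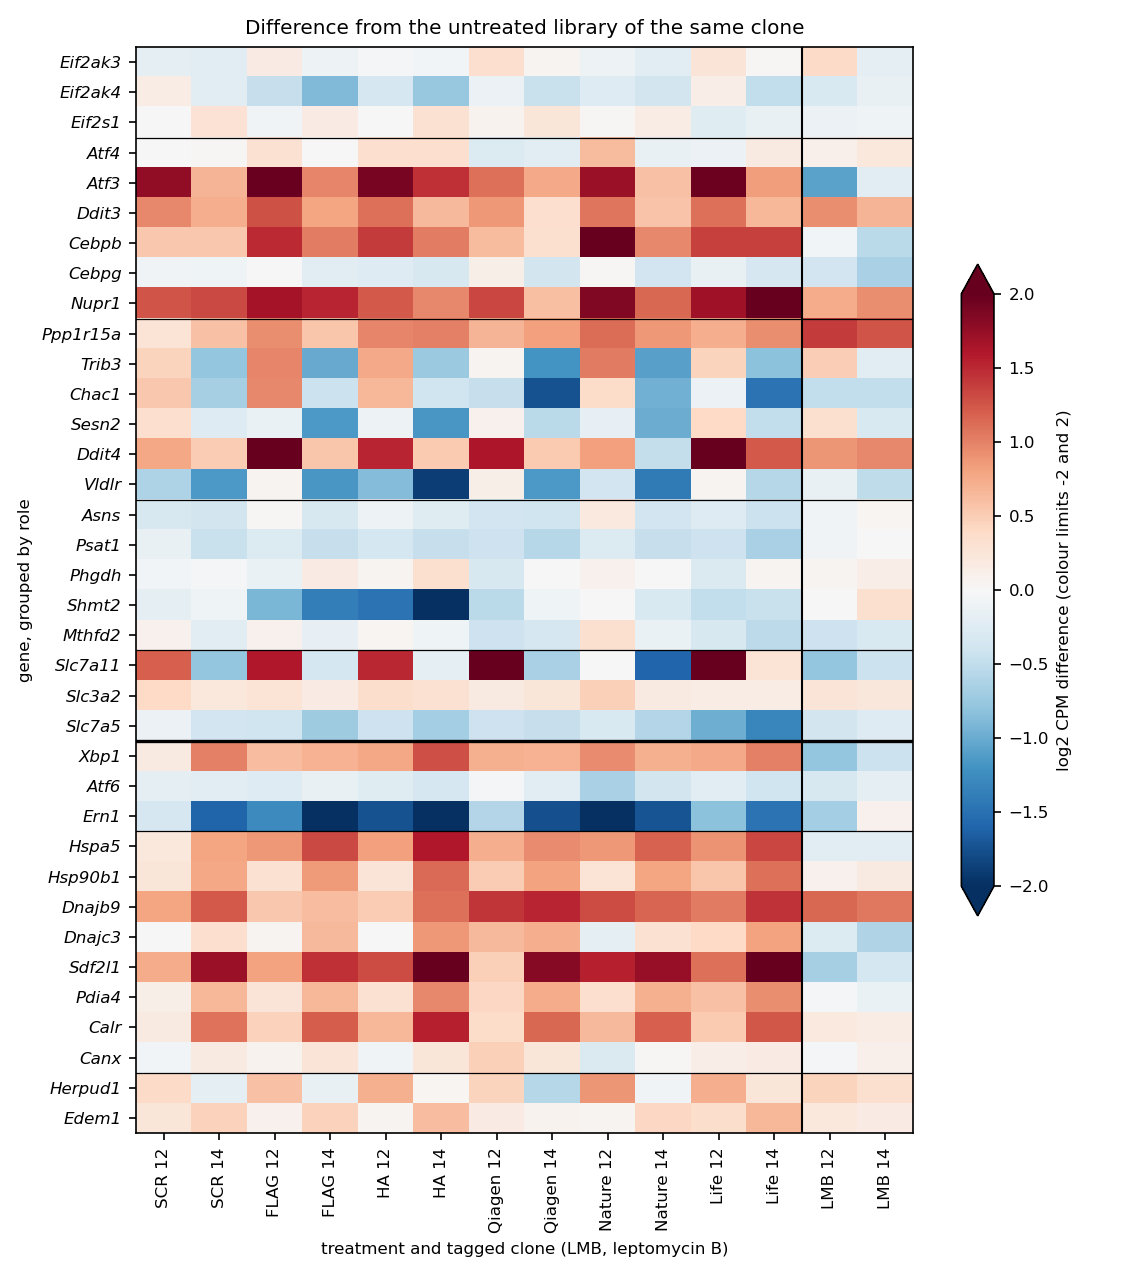
Log2 CPM of each of the 36 members (rows, grouped by role, the unfolded protein response list below the thick line) in each treated library of the tagged clones minus the untreated library of the same clone (columns, colour limits -2 and 2). Hspa5, Calr, Ddit3, Ppp1r15a and Nupr1 are above untreated in 12 of 12 siRNA libraries, and Shmt2, Slc7a5 and Psat1 below it in 12 of 12. For Shmt2 the difference in Nature clone 12 is only -0.001.

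Among the chaperones, 6 of 8 rose, and the fitted change was positive for all 8 (median log2 fold change 0.73). Hspa5 (gene 14828, chromosome 2, 34772090 to 34776529) stood at 710 and 665 CPM in untreated clones 12 and 14, and at 820 to 2020 CPM, median 1290, in the 12 siRNA libraries. Each siRNA library was above both untreated libraries, so the groups do not overlap. The change was 0.95 on the log2 scale (SE 0.13, edgeR adjusted p = 0.000287). Calr, the lectin chaperone calreticulin, stood at 738 and 618 CPM untreated and 832 to 1820 CPM, median 1240, with siRNA (0.83, SE 0.16, adjusted p = 0.00168). Sdf2l1, a component of the BiP chaperone complex, had 8.60 and 6.15 CPM untreated and 12.0 to 29.0 CPM, median 20.7, with siRNA (1.40, SE 0.22, adjusted p = 0.000543). Neither gene's groups overlapped.

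Dnajb9, a DNAJ co-chaperone of BiP, had 14.3 and 10.2 CPM untreated and 15.7 to 38.4 CPM, median 24.2, with siRNA (log2 fold change 1.06, SE 0.16, edgeR adjusted p = 0.000389). Hsp90b1, the HSP90 of the endoplasmic reticulum, differed between the untreated clones, at 1590 and 824 CPM, so that its siRNA range of 1410 to 2340 CPM overlaps the untreated one. Within each clone every siRNA library was above untreated (0.62, SE 0.13, adjusted p = 0.00299). A partner on the opposite strand, 1810014B01Rik, overlaps 10.3% of its exon length. Pdia4, a disulfide isomerase, rose from 155 and 130 CPM to 168 to 252 CPM, median 207 (0.55, SE 0.12, adjusted p = 0.00353). The other 2 chaperones, Dnajc3 (0.38, adjusted p = 0.0713) and Canx, or calnexin (0.12, adjusted p = 0.44), did not pass. Both hold the stress element shown above, as do the called Hspa5, Hsp90b1 and Calr, while the called Dnajb9, Sdf2l1 and Pdia4 do not hold it in this window.

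Of the sensors and factors of this list, Xbp1, the transcription factor downstream of IRE1, had 23.3 and 21.9 CPM untreated and 26.4 to 53.5 CPM, median 38.7, with siRNA (0.79, SE 0.155, edgeR adjusted p = 0.00199). Ern1, which encodes IRE1 itself, went the other way. It stood at 24.7 CPM in untreated clone 12 and at 2.69 to 19.6 CPM in that clone's siRNA libraries, and at 101 CPM in untreated clone 14 and 15.6 to 36.4 CPM with siRNA. All 12 libraries were below their own clone's untreated library (-1.55, SE 0.325, adjusted p = 0.00289). Atf6 was also below in 12 of 12, by a margin that did not pass the test (-0.27, adjusted p = 0.109). Such counts rest on only 1 untreated library per clone. The degradation factors Edem1 (0.31, adjusted p = 0.0519, above untreated in 12 of 12) and Herpud1 (0.24, adjusted p = 0.267, 8 of 12) were not called.

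In the integrated stress response list, the Atf4 transcript itself was not called. It stood at 258 and 241 CPM untreated and 208 to 400 CPM, median 253, with siRNA, with 7 of 12 libraries above and 5 below untreated (0.10, SE 0.15, edgeR adjusted p = 0.67). Of the 6 transcription factors 4 rose. Ddit3 (gene 13198, chromosome 10, 127290793 to 127296291), which encodes CHOP, had 19.4 and 13.1 CPM untreated. With siRNA it had 35.5 to 46.9 CPM in clone 12 and 16.5 to 22.7 CPM in clone 14, so that every library exceeded its own untreated control (0.84, SE 0.11, adjusted p = 2e-04). Nupr1, a chromatin-associated stress protein, had 7.07 and 16.9 CPM untreated and 16.6 to 85.0 CPM, median 25.7, with siRNA, above its own control in 12 of 12 (1.43, SE 0.20, adjusted p = 0.000287). Atf3, an ATF4 target that encodes a bZIP factor, had 2.86 and 4.64 CPM untreated and 6.20 to 12.8 CPM, median 9.38, without overlap (1.31, SE 0.28, adjusted p = 0.00344). Cebpb had 2.62 and 3.76 CPM untreated and 3.83 to 12.6 CPM, median 7.17, with siRNA (1.09, SE 0.30, adjusted p = 0.0126). Tmem189 overlaps 20.7% of its exon length on the opposite strand. Cebpg, a partner of ATF4, was not called (-0.17, adjusted p = 0.183).

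**Figure D2:**
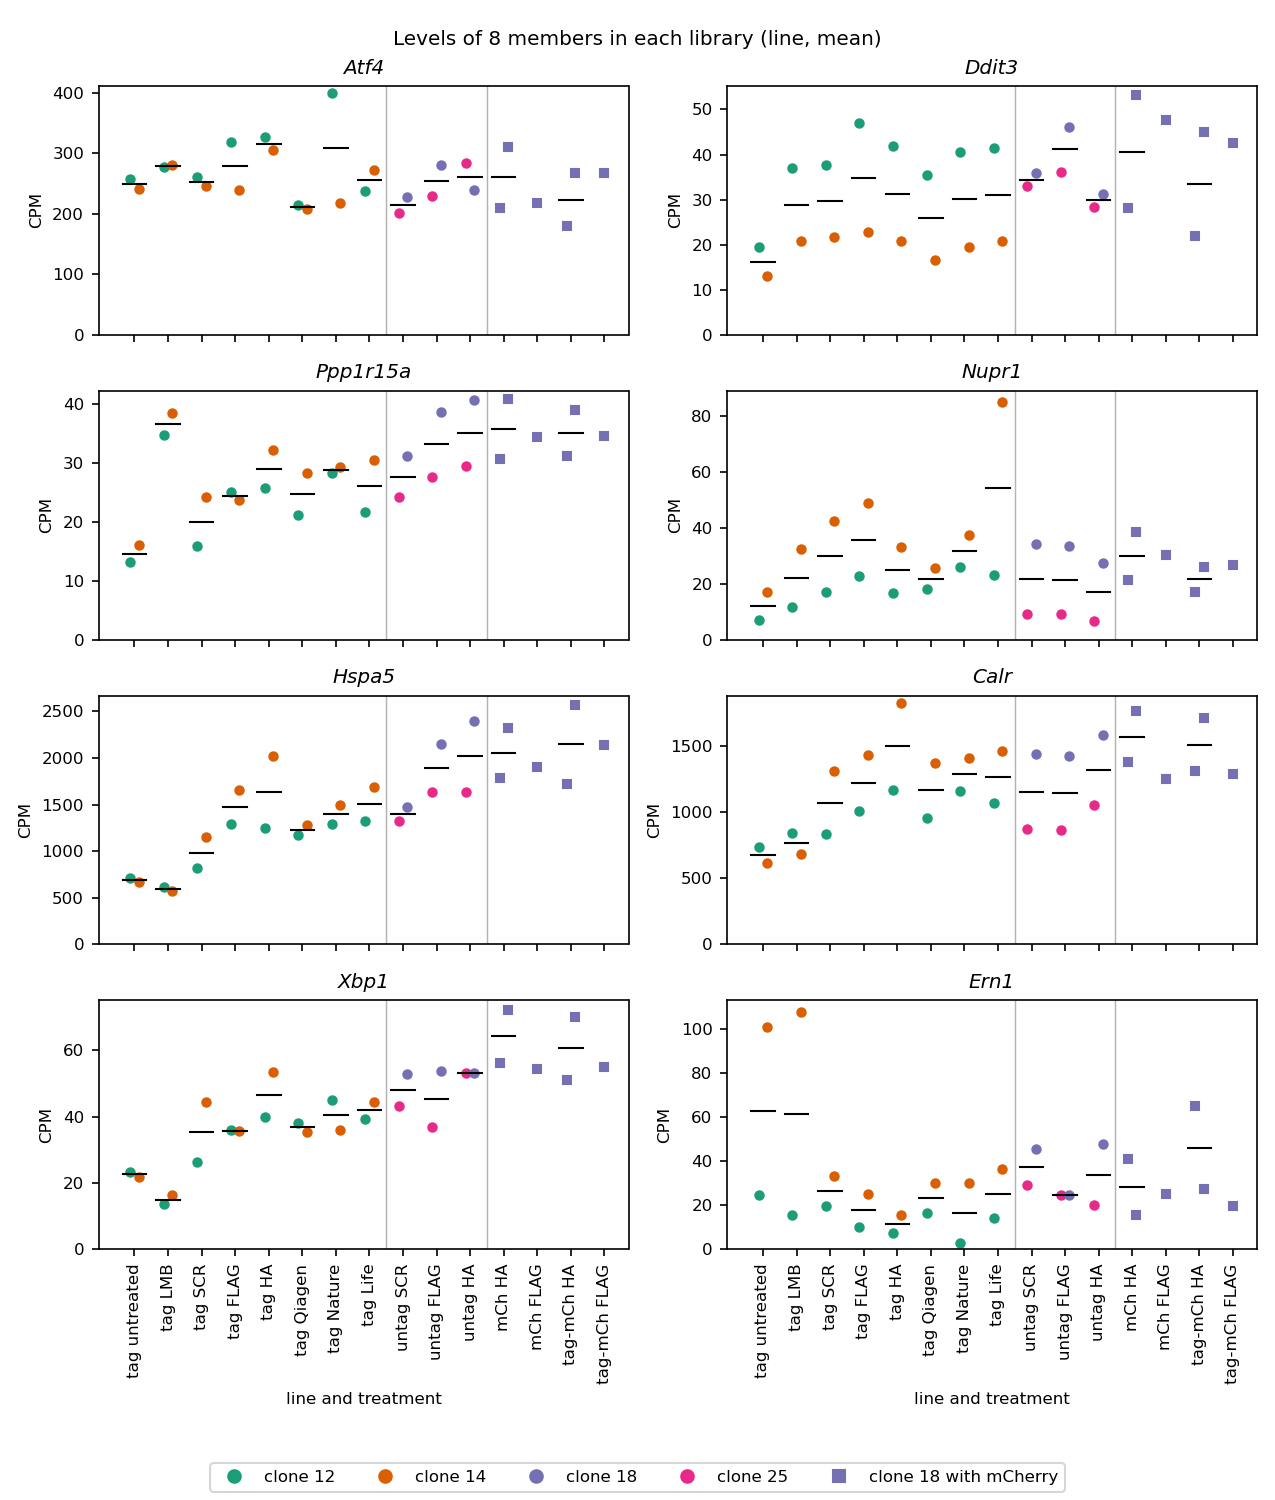
CPM of 8 members in each library (points, coloured by clone; squares, clone 18 with mCherry constructs; black lines, group means) for each line and treatment. Hspa5 is lowest in the untreated and leptomycin B libraries (569 to 710 CPM), while Atf4 lies between 179 and 400 CPM in all 28.

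Feedback and stress effectors split. Ppp1r15a (gene 17872, chromosome 7, 45522917 to 45526268), whose product GADD34 directs the phosphatase that reverses eIF2α phosphorylation, had 13.1 and 16.0 CPM untreated. With siRNA it had 15.8 to 32.1 CPM, median 25.3, above its clone's control in 12 of 12 (0.80, SE 0.12, edgeR adjusted p = 0.000405). Ddit4, which encodes the mTORC1 inhibitor REDD1, rose from 12.9 and 20.9 CPM to a median of 30.3 CPM (0.97, SE 0.24, adjusted p = 0.00831). Its range was 15.0 to 61.2 CPM, and only Nature clone 14 was below its control. Vldlr, a lipoprotein receptor, fell (-0.80, SE 0.17, adjusted p = 0.00335), from 11.9 and 48.9 CPM to 6.47 to 12.8 CPM in clone 12 and 13.2 to 32.9 CPM in clone 14. The estimates for Trib3 (-0.27, adjusted p = 0.465), Chac1 (-0.38, adjusted p = 0.19) and Sesn2 (-0.39, adjusted p = 0.115) did not pass.

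For some members the clones differed. Trib3, a pseudokinase that binds ATF4, had 9.13 CPM in untreated clone 12 and 9.53 to 18.9 CPM with siRNA, but 19.2 CPM in untreated clone 14 and 8.31 to 11.5 CPM with siRNA. Chac1, a glutathione-degrading enzyme, had 7.49 CPM untreated and 5.45 to 14.6 CPM with siRNA in clone 12, and 21.0 against 6.23 to 15.8 CPM in clone 14. The siRNA response of clone 14 minus that of clone 12 was -1.28 for Chac1 (SE 0.19, edgeR adjusted p = 0.021) and -1.56 for Trib3 (SE 0.34, adjusted p = 0.144). Chac1 was the only member called in this test, which called 0.0795% of all genes and rests on 1 untreated library per clone. For Slc7a11, the cystine transporter, it was -1.985 (SE 0.46, adjusted p = 0.197). In clone 12 Slc7a11 went from 29.5 CPM to 29.7 to 137 CPM, and in clone 14 from 62.2 CPM to 20.6 to 75.5 CPM. For every chaperone the estimate was positive, a larger rise in clone 14, without a call. It was 0.76 for Calr (SE 0.17), whose mean log2 difference from untreated was 0.475 in clone 12 and 1.239 in clone 14. These means were 0.358 and 0.908 for Hsp90b1, and 0.728 and 1.195 for Hspa5.

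The amino acid genes, the best known ATF4 targets, did not rise as a group. All 5 synthesis genes had negative estimates (median -0.25) and 2 of them fell. Shmt2, the mitochondrial serine hydroxymethyltransferase (gene 108037, chromosome 10, 127517123 to 127522444), stood at 382 and 230 CPM untreated and 57.6 to 382 CPM, median 209, with siRNA (-0.65, SE 0.14, edgeR adjusted p = 0.0033). The fall was carried by FLAG and HA siRNA, as described below. Psat1, phosphoserine aminotransferase, had 745 and 742 CPM untreated and 474 to 674 CPM, median 551, without overlap (-0.41, SE 0.08, adjusted p = 0.00212). Asns, asparagine synthetase, had 135 and 191 CPM untreated and 103 to 161 CPM, median 143, below its control in 10 of 12 (-0.25, adjusted p = 0.0803). Mthfd2 (-0.14, adjusted p = 0.289) and Phgdh (-0.01, adjusted p = 0.956) were not called.

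Slc7a5, the light chain of the large neutral amino acid transporter LAT1, fell (-0.57, SE 0.09, edgeR adjusted p = 0.000666), from 160 and 187 CPM to 76.0 to 146 CPM, median 120, without overlap. Slc3a2, which encodes the heavy chain shared by LAT1 and the cystine transporter, rose slightly (0.255, SE 0.08, adjusted p = 0.0259), from 156 and 158 CPM to 173 to 217 CPM, median 185. In this mean both chains of 1 transporter thus moved in opposite directions. Both calls were lost without untreated clone 14, and that of Slc3a2 also without untreated clone 12. The fall of Slc7a5 was uneven, with a mean log2 difference from untreated of -1.136 with Life siRNA and -0.254 with SCR. Of the kinases and their target, Eif2ak4 fell (-0.34, SE 0.12, adjusted p = 0.0482), a call lost under 17 of 19 alternatives. Eif2ak3 (-0.01, adjusted p = 0.988) and Eif2s1 (0.06, adjusted p = 0.575) were not called.

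The untreated library of clone 14 decides much of this comparison. Without it 7 of 36 members were called (19.4%), where 2.08% of all genes were, down from 28.6%. These 7, all among the 20, were Ddit3, Ppp1r15a, Nupr1, Hspa5, Dnajb9, Atf3 and Ddit4. The other 13 lost their calls, with adjusted p from 0.0519 for Sdf2l1 to 0.562 for Eif2ak4. Among the 13, Calr was then at 0.53 (adjusted p = 0.131), Hsp90b1 at 0.39 (0.194), Vldlr at -0.32 (0.406), Xbp1 at 0.66 (0.103) and Ern1 at -1.34 (0.129). Without the untreated library of clone 12, Atf3 (1.004, adjusted p = 0.0826), Ddit4 (0.57, 0.205), Cebpb (0.89, 0.15), Slc3a2 (0.21, 0.225) and Eif2ak4 (-0.49, 0.0634) were lost. Ddit3, Ppp1r15a, Nupr1, Hspa5 and Dnajb9 passed whichever library was left out. SCR clone 12 was the siRNA library nearest to untreated for 6 of the 14 genes that rose, including Hspa5 and Calr. For 4 of the 6 that fell it had the highest value relative to untreated. In Eif2ak4, 1 of these 4, it stood above untreated (log2 difference 0.155).

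**Figure D3:**
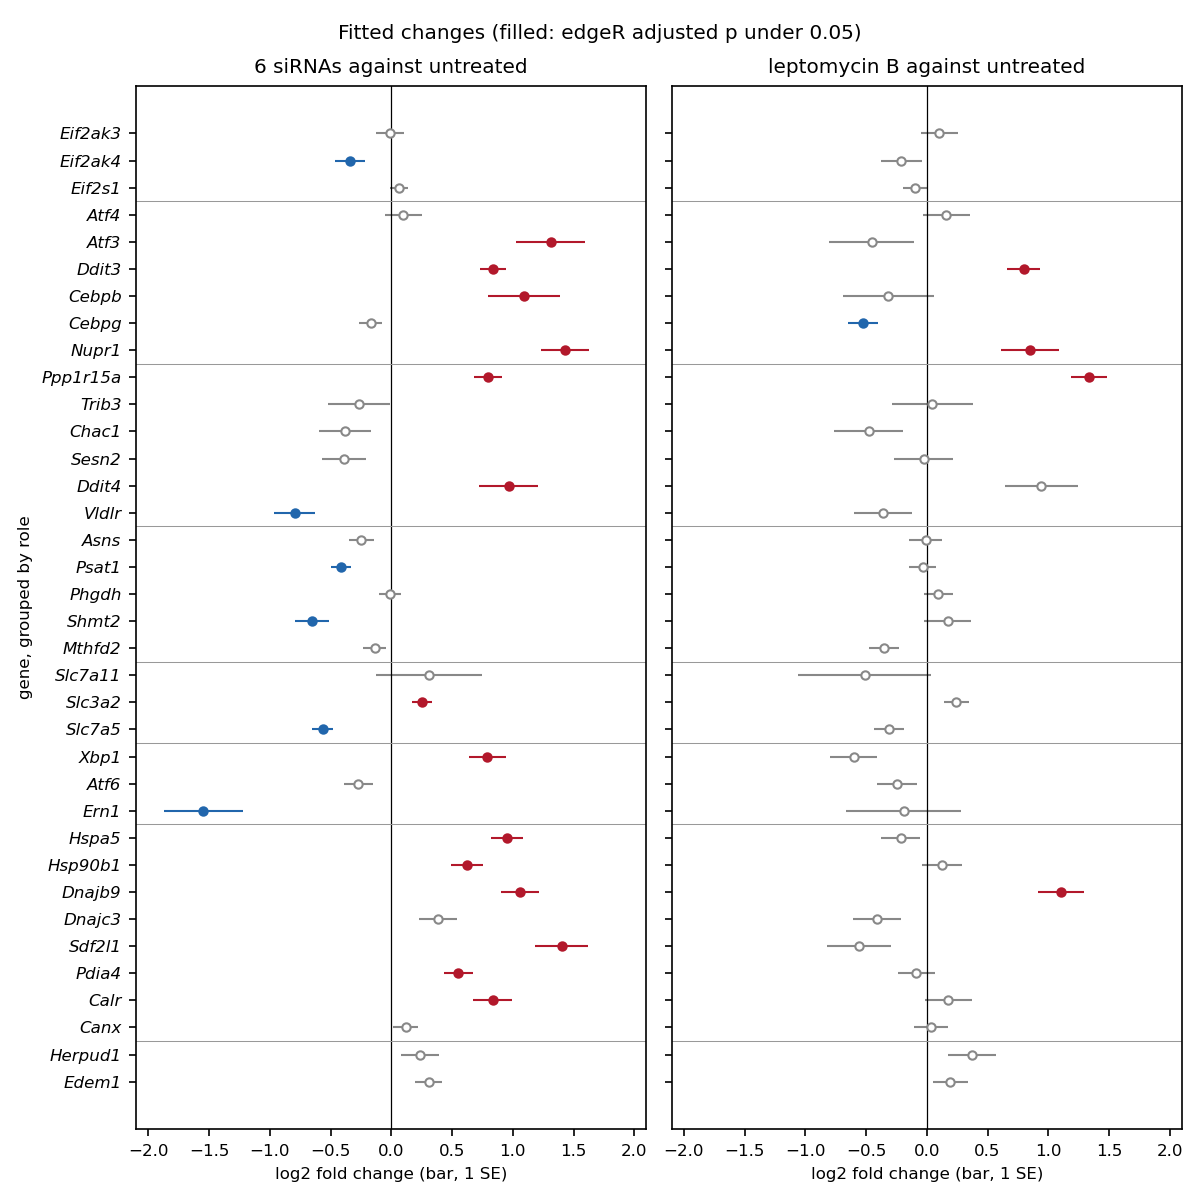
Log2 fold changes of the 36 members (points; bars, 1 SE; filled, edgeR adjusted p under 0.05) for the mean of 6 siRNAs against untreated (left) and leptomycin B against untreated (right). With siRNA 14 members rose and 6 fell, and with leptomycin B 4 rose and 1 fell; Ppp1r15a, Ddit3, Nupr1 and Dnajb9 rose in both panels, which share the untreated libraries.

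Other genes of the same pathways were read from longer lists. Of 39 further integrated stress response genes, 13 fell and 2 rose, beside 17% and 11.6% of all genes, with a median of -0.13 against -0.004. Sqstm1, the autophagy receptor p62, rose (1.38, SE 0.11, edgeR adjusted p = 2.82e-06). Aldh18a1, of proline synthesis (-0.63, adjusted p = 0.00141), Gpt2, an alanine aminotransferase (-0.56, adjusted p = 0.00284), and Tars, the threonyl-tRNA synthetase (-0.35, adjusted p = 0.00359), fell. Tars was lower with Nature siRNA than with the other targeting siRNAs, as described below. Its mean fall was therefore not even across the siRNAs and cannot be read as a response to transfection alone. Of 30 further genes of endoplasmic reticulum stress 10 rose and 2 fell, beside the same shares, with a median of 0.22. Those with the smallest p were Manf, a secreted stress factor (0.95, adjusted p = 0.00171), Pdia6 (0.60, adjusted p = 0.00221) and Pdia3 (0.73, adjusted p = 0.00244), disulfide isomerases, and Dnajb11, a BiP co-chaperone (0.66, adjusted p = 0.00358).

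SCR siRNA alone was set against untreated to ask what transfection does without a targeting siRNA. Here 5 members rose and 1 fell, 6 of 36, where 1.68% and 3.61% of all genes did, 5.29% in all. Ddit3 rose from 19.4 and 13.1 CPM to 37.7 and 21.7 CPM (0.83, SE 0.135, edgeR adjusted p = 0.00219), and Nupr1 from 7.07 and 16.9 to 16.9 and 42.5 CPM (1.29, SE 0.24, adjusted p = 0.00486). Dnajb9 (1.01, adjusted p = 0.0061), Sdf2l1 (1.21, adjusted p = 0.0125) and Atf3 (1.235, adjusted p = 0.043) rose too, and Vldlr fell (-0.93, adjusted p = 0.0325). Hspa5, at 820 and 1150 CPM, had an estimate of 0.49 (adjusted p = 0.0816), and all 8 chaperones were positive (median 0.49). Without the untreated library of clone 14, Ddit3 alone of the 6 passed, and 0.656% of all genes did. The adjusted p was then 0.0582 for Nupr1, 0.101 for Dnajb9, 0.213 for Sdf2l1, 0.105 for Atf3 and 0.471 for Vldlr. Atf3 was lost also without SCR clone 12 (0.246) or untreated clone 12 (0.231), Vldlr without SCR clone 12 (0.189) or SCR clone 14 (0.0777), and Sdf2l1 without SCR clone 14 (0.0743).

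Leptomycin B moved 5 of the 36 members (13.9%), 4 upward and 1 downward. Over all genes 4.29% rose and 5.7% fell, 9.99% in all, so the share among members is little above the background. Xpo1, the drug's target, stood at 701 and 635 CPM untreated and 1240 and 1190 CPM with the drug. Ppp1r15a rose from 13.1 and 16.0 CPM to 34.7 and 38.4 CPM (1.34, SE 0.15, edgeR adjusted p = 3.17e-05), without overlap, and passed in each of the 8 alternatives. Its levels with the drug exceeded all 12 siRNA libraries of these clones, which reached 32.1 CPM. Dnajb9 rose from 14.3 and 10.2 CPM to 31.8 and 21.1 CPM (1.105, SE 0.19, adjusted p = 0.00121), and Ddit3 from 19.4 and 13.1 to 36.9 and 20.9 CPM (0.80, SE 0.135, adjusted p = 0.00107). In neither gene did the groups overlap.

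Nupr1 rose with the drug in both clones, from 7.07 and 16.9 CPM to 11.8 and 32.4 CPM (0.85, SE 0.24, edgeR adjusted p = 0.0295), and was lost without any of the 4 libraries (adjusted p = 0.0518 to 0.195). Cebpg fell from 65.7 and 75.4 CPM to 50.2 and 47.8 CPM (-0.525, SE 0.125, adjusted p = 0.0129), without overlap, and was lost without untreated clone 14 (0.144) or leptomycin B clone 14 (0.0795). The chaperones other than Dnajb9 were not called. Hspa5 had 615 and 569 CPM against 710 and 665 CPM untreated, and Calr 845 and 686 CPM against 738 and 618 CPM. Xbp1 had 13.6 and 16.3 CPM, below both untreated libraries, with an estimate of -0.60 that did not pass (adjusted p = 0.0562). Ddit4 had 23.9 and 40.8 CPM (0.94, adjusted p = 0.0522), and Atf4 277 and 280 CPM. Atf3 was not called with the drug, at 1.33 and 4.00 CPM against 2.86 and 4.64 CPM untreated. It was below untreated within each clone, where all siRNA libraries were above, but the levels of the 2 groups overlap. The siRNA and drug comparisons share their untreated libraries. Of the 39 further integrated stress genes Eif2ak2 (0.81, adjusted p = 0.000839) and Atf5 (0.72, adjusted p = 0.0192) rose, and Eif2ak1 (-0.42, adjusted p = 0.0167) and Jdp2 (-0.735, adjusted p = 0.0283) fell. Of the 30 further endoplasmic reticulum genes Fkbp14 (1.04, adjusted p = 0.011) and Crebrf (1.20, adjusted p = 0.0161) rose and Edem3 fell (-0.68, adjusted p = 0.0316). The called shares of these 2 lists, 10.3% and 10%, are near the 9.99% of all genes.

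Each targeting siRNA was then set against SCR, and against the mean of the other 4 targeting siRNAs, to see which members move with which sequence. The comparisons with SCR share the SCR libraries. Few members were called. Only Shmt2 with HA siRNA and Slc7a5 with Life siRNA, both against SCR, passed whichever library was left out.

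Shmt2 responded to the siRNAs against the tag. With SCR siRNA it stood at 338 and 216 CPM in clones 12 and 14, with FLAG siRNA at 203 and 88.2 CPM and with HA siRNA at 137 and 57.6 CPM. In both clones HA was lowest and FLAG next, while Qiagen (263 and 215 CPM), Nature (382 and 186 CPM) and Life (272 and 169 CPM) were higher than both. Against SCR, Shmt2 fell 3.01-fold with HA (-1.59, SE 0.20, edgeR adjusted p = 0.000124), a call kept whichever library was left out. It fell by 1.00 on the log2 scale with FLAG (SE 0.195, adjusted p = 0.00981), a call lost without SCR clone 12 (adjusted p = 0.0737) or FLAG clone 14 (0.227). The estimates for the cyclin D1 siRNAs were -0.16 with Qiagen (SE 0.19, adjusted p = 0.728), -0.02 with Nature (SE 0.19, adjusted p = 0.984) and -0.33 with Life (SE 0.19, adjusted p = 0.322).

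In the untagged clones, where the tag is absent and Ccnd1 stayed between 1010 and 1330 CPM, Shmt2 moved in the same way. It stood at 210 and 263 CPM with SCR in clones 25 and 18, 126 and 116 CPM with FLAG and 78.8 and 67.7 CPM with HA siRNA. The groups did not overlap (-1.33, SE 0.16, adjusted p = 0.000109), and of the libraries only SCR clone 18 ended the call when left out (-1.07, edgeR adjusted p = 0.0727). The response of tagged minus untagged clones was 0.03 (SE 0.24, adjusted p = 1). In clone 18 with mCherry constructs it stood at 48.7 to 63.0 CPM in the 4 HA libraries and at 98.8 and 93.5 CPM in the 2 FLAG libraries. The order of HA below FLAG thus held in all 4 clones and in both mCherry lines.

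**Figure D4:**
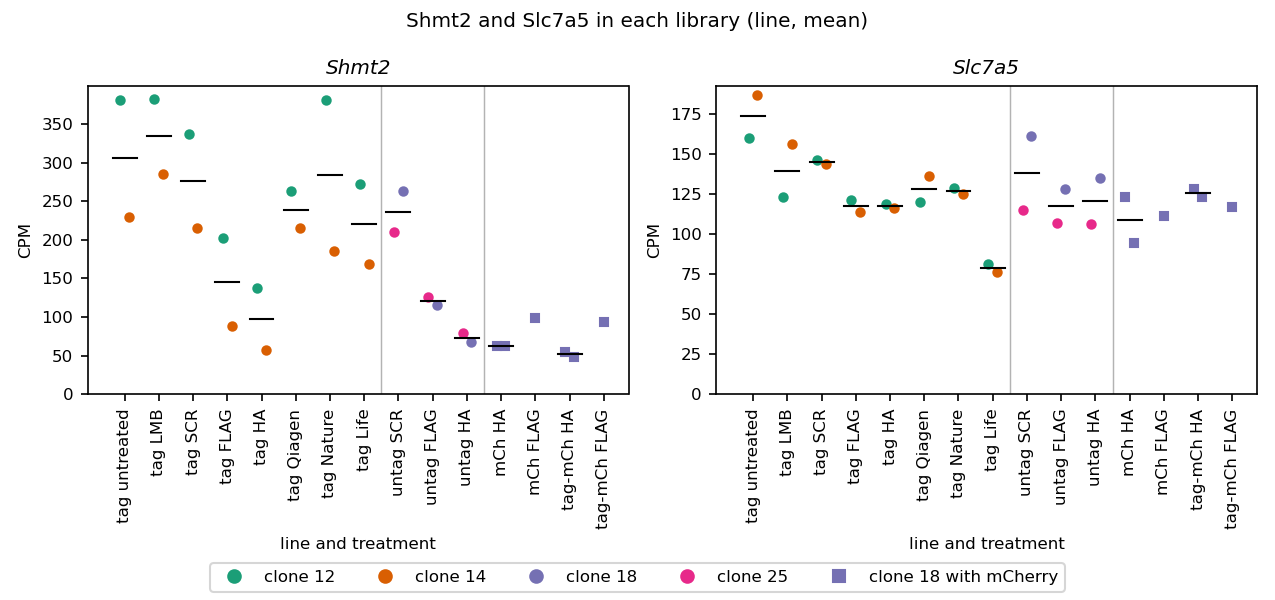
CPM of Shmt2 and Slc7a5 in each library (points, coloured by clone; squares, clone 18 with mCherry constructs; black lines, group means) by line and treatment. Shmt2 is lowest with HA siRNA in tagged, untagged and mCherry lines, and Slc7a5 is lowest with Life siRNA (81.3 and 76.0 CPM).

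Slc7a5 responded to Life siRNA. It had 81.3 and 76.0 CPM with Life, below the 94.7 to 187 CPM of the other 26 libraries. Against SCR (146 and 144 CPM) it fell 1.84-fold (-0.88, SE 0.125, edgeR adjusted p = 0.000215), and the call passed in each of 9 alternatives. Against the mean of the other 4 targeting siRNAs it fell too (-0.64, SE 0.10, adjusted p = 0.000505), a call lost without Life clone 14 (-0.54, adjusted p = 0.051). Slc3a2, its partner chain, had 173 and 174 CPM with Life siRNA, against 206 and 182 CPM with SCR.

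In counts against SCR, FLAG siRNA lowered 1 member of 36, Shmt2 (2.17% of all genes called, 0.987% lower). HA siRNA raised 2 and lowered 1 (4.11% of genes, 1.95% higher and 2.15% lower). With every targeting siRNA Hspa5 stood above SCR, at 1170 to 1320 CPM in clone 12 and 1280 to 2020 CPM in clone 14. Against the other 4 targeting siRNAs Hspa5 was not called with HA or Life. Hspa5 rose with HA, from 820 and 1150 CPM with SCR to 1250 and 2020 CPM (0.72, SE 0.16, edgeR adjusted p = 0.016), and was lost without SCR clone 12 (0.27) or HA clone 14 (0.332). Ppp1r15a, from 15.8 and 24.1 CPM to 25.7 and 32.1 CPM (0.55, adjusted p = 0.0396), was lost without SCR clone 12 (0.509), HA clone 12 (0.138) or HA clone 14 (0.265). Qiagen siRNA lowered Chac1 alone, 1 member of 36 (5.33% of genes, 2.53% lower), from 10.9 and 13.2 CPM to 5.45 and 6.23 CPM, without overlap (-1.04, adjusted p = 0.0492). That call was lost without any of the 4 libraries (adjusted p = 0.0647 to 0.365). Nature siRNA raised 1 member, Ppp1r15a (8.56% of genes, 3.76% higher), to 28.3 and 29.2 CPM (0.56, adjusted p = 0.023). It was lost without SCR clone 12 (0.386) or Nature clone 12 (0.284).

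Life siRNA raised 3 and lowered 2 members, 5 of 36 (8.29% of all genes, 3.97% higher and 4.32% lower). Beside Slc7a5, Hspa5 rose to 1320 and 1690 CPM (0.62, edgeR adjusted p = 0.0244), Ddit4 from 22.1 and 29.8 to 61.2 and 48.9 CPM (1.08, adjusted p = 0.0313) and Nupr1 from 16.9 and 42.5 to 23.0 and 85.0 CPM (0.77, adjusted p = 0.0482). Eif2s1, the eIF2α gene, fell from 474 and 420 to 397 and 308 CPM (-0.35, adjusted p = 0.0358), without overlap. Each of these 4 was lost without SCR clone 12 (adjusted p = 0.284 for Hspa5, 0.346 for Ddit4, 0.325 for Nupr1 and 0.0925 for Eif2s1) and without Life clone 14 (0.156, 0.0779, 0.588 and 0.23). Without Life clone 12, Hspa5 (0.0783), Ddit4 (0.187) and Eif2s1 (0.116) were lost, and without SCR clone 14, Nupr1 (0.0881) and Eif2s1 (0.186). Life clone 14 held 3.48% Rn45s.

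Against the mean of the other 4 targeting siRNAs, a comparison without SCR libraries, FLAG siRNA moved 0 of 36 members by edgeR (1.32% of genes; 5 members had an unadjusted p under 0.05, and DESeq2 called 2). HA lowered 2, or 5.56% of members, where 4.86% of all genes were called and 2.21% were lower. These were Shmt2 (-1.21, SE 0.17, edgeR adjusted p = 0.000323; lost without HA clone 14, 0.0676) and Vldlr (-0.84, adjusted p = 0.025), lost without HA clone 12 (0.0966) or HA clone 14 (0.52). Vldlr had 6.47 and 13.2 CPM with HA, lower in each clone than with any other siRNA. Of 30 further genes of endoplasmic reticulum stress, 9 were higher and 3 lower with Qiagen siRNA (40% called). Of 39 further integrated stress response genes 4 were higher and 1 lower (12.8%). Among the members, Qiagen raised 2 and lowered 1, 8.33% in all. This share is below that of all genes (13.7%, with 8% higher and 5.71% lower). Shmt2 was higher (0.57, adjusted p = 0.0158; lost without Qiagen clone 14, 0.363), as FLAG and HA libraries form part of its comparison group. Dnajb9, at 38.4 and 29.3 CPM, was also higher (0.50, adjusted p = 0.0279), and Chac1 lower (-0.93, adjusted p = 0.0196). Both lost their calls without Qiagen clone 12 (0.306 and 0.108) or Qiagen clone 14 (0.087 and 0.157), and Dnajb9 also without FLAG clone 14 (0.059) or HA clone 12 (0.0607).

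Nature siRNA raised 2 members and lowered 2 relative to the other 4. These 4 of 36 are near the share of all genes (9.93%, with 4.44% higher and 5.5% lower). The other 4 include FLAG and HA, with which Shmt2 was lowest, and against SCR Shmt2 was not called with Nature siRNA. Shmt2 was higher (0.76, edgeR adjusted p = 0.00223; lost without Nature clone 12, 0.142). Ddit4, at 22.9 and 15.0 CPM against 30.0 to 61.2 CPM with the other 4, was lower without overlap (-1.10, adjusted p = 0.00864; lost without Nature clone 14, 0.0895). Slc7a11, at 29.7 and 20.6 CPM against 39.7 to 137 CPM, was also lower without overlap (-1.66, adjusted p = 0.0421). It was lost without either Nature library (0.317 and 0.133), FLAG clone 12 (0.0691), Qiagen clone 12 (0.0544) or Life clone 12 (0.0578). Mthfd2, a mitochondrial folate enzyme, was higher (0.32, adjusted p = 0.0417), with 167 and 108 CPM. Its call was lost without any of the 10 libraries other than Qiagen clone 14 and Nature clone 14 (adjusted p = 0.0575 to 0.735). Outside the members, Tars (-1.56, adjusted p = 9.09e-09), the oligosaccharyltransferase subunit gene Ostc (-1.89, adjusted p = 4.77e-08) and the amino acid transporter gene Slc38a2 (-0.94, adjusted p = 0.000121) were lower with Nature siRNA.

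Life siRNA raised 3 members and lowered 3 relative to the other 4. These 6 of 36 are near the share of all genes (14.2%, with 7.58% higher and 6.62% lower). Beside Slc7a5, they were Nupr1 (0.76, edgeR adjusted p = 0.00795), Eif2s1 (-0.31, adjusted p = 0.0151), Ddit4 (0.82, adjusted p = 0.0198), Mthfd2 (-0.34, adjusted p = 0.0329) and Vldlr (0.57, adjusted p = 0.0474). Nupr1 was 0.30 without Life clone 14 (adjusted p = 0.427), so that this library carries the value. The other 4 were lost without Life clone 12 (0.0986 for Eif2s1, 0.292 for Ddit4, 0.173 for Mthfd2 and 0.196 for Vldlr) or Life clone 14 (0.206, 0.0793, 0.258 and 0.283). Mthfd2 was lost also without FLAG clone 12, HA clone 14, Qiagen clone 14 or Nature clone 12 (0.0552 to 0.061), and Vldlr without FLAG, HA, Qiagen or Nature clone 14 (0.0622 to 0.0957). Eif2b1, a subunit gene of the exchange factor that eIF2α phosphorylation blocks, was lower with Life siRNA (-1.085, adjusted p = 2.09e-06).

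Beside Shmt2, FLAG and HA siRNA in untagged clones lowered Eif2ak4, 2 of 36 members (2.68% of genes, 1.47% lower). Eif2ak4 had 51.4 and 35.4 CPM with SCR in clones 25 and 18 and 37.7, 38.5, 17.8 and 25.1 CPM with the tag siRNAs (-0.58, SE 0.14, edgeR adjusted p = 0.0328). The call was lost without either SCR library (0.12 and 1), FLAG clone 18 (0.249) or either HA library (0.0522 and 0.118). The tagged minus untagged response called 0 of 36 members, none with an unadjusted p under 0.05 (0.00662% of genes, 1 gene). DESeq2 called 0 as well. The tagged mCherry construct against mCherry called 0 of 36 (0% of genes; DESeq2 also 0). Ddit3 (-0.25) and Cebpb (-0.73) alone had an unadjusted edgeR p under 0.05, with an adjusted p of 0.529 for both.

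Levels also differed between clones. With SCR, FLAG and HA siRNA, the widest range of clone means was 5-fold for Nupr1, at 8.24 CPM in clone 25 and 41.4 CPM in clone 14. Slc7a11 ranged from 46.6 CPM in clone 14 to 231 CPM in clone 18, Vldlr from 8.84 CPM in clone 12 to 40.0 CPM in clone 18, and Chac1 from 12.5 to 40.8 CPM in the same clones. The narrowest range was 1.10-fold for Cebpg. Each clone is 1 line, so these are levels of clones and not of tagged or untagged cells.

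Across the 28 libraries, with log2 CPM centred within each clone or line, the 28 pairs of chaperones had a median Pearson r of 0.68, from -0.03 to 0.94. Pairs among the amino acid synthesis and transporter genes had a median of 0.16. The 64 pairs of 1 chaperone with 1 amino acid gene had a median of -0.28. These values are descriptions, since the libraries share treatments, clones and SCR controls. Outside the members, tested genes most like Hspa5 included Pdia6 (r = 0.916), Pdia3 (0.907), Srxn1 (0.904) and Emp2 (0.901). Those most like Atf4 were Marcksl1 (0.914), Vegfb (0.908), Wdr34 (0.896), Gadd45gip1 (0.894) and Pstk (0.893), with no member of the pathway lists among them.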

How the data were processed

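Poly(A) RNA of 28 libraries was sequenced as single reads of 100 bp with a stranded kit, per the labels' protocols. The submitters' processing notes name CASAVA 1.8.2, FastQC, TopHat2 2.0.13, Bowtie2 2.2.3, HTSeq 0.6.1p1 and build mm10; its strand setting and the annotation were not given in the sources used here. The authors deposited raw counts per gene, not normalized. Each library was 1 sample, although titles carry an n of 3 or 4 of unstated meaning.

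Analysis used edgeR 4.0.16 under R 4.3.3. After filterByExpr (by group) and TMM scaling, all libraries entered 1 quasi-likelihood model (robust) with the clone, or the matched pair of mCherry lines, as a block, giving 17 coefficients and 11 residual degrees of freedom, so that groups of 2 share 1 estimate of spread. Benjamini-Hochberg adjustment ran over 15099 genes. Standard errors were derived as the absolute log2 fold change over the root of the F statistic. Log2 CPM used a prior count of 2, and RPKM used the exon length of GRCm38.p6, the assembly of mm10. The block rests on both arms holding the same clones; deviations of same-clone libraries correlated in each of 56 tagged (lowest 0.834), 6 untagged (0.862) and 3 mCherry pairs (0.251). The least different pair of libraries had a chi-square per degree of freedom of 14.6, so all libraries were counted separately. The fit was tested on simulated data.

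The members and lists were chosen with earlier results of these data known. The text names every called member of a comparison, Atf4, Ddit3, Trib3, Asns, Hspa5 and Xbp1 where described, up to 4 other called pathway genes by smallest p, and the 5 genes most like Atf4 and Hspa5, of which 1 is not reported here. Alternatives were relative log expression size factors, no filter, no replicate block, DESeq2 1.42.0 and leaving out each library; fits without the 4 libraries over 2% Rn45s, and the comparison of the siRNA response between clones 12 and 14, were added after seeing the data. Leaving out libraries was not run for pathway genes outside the 36.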

Additional observations from a re-analysis of the deposited data

Results flagged for a closer look

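The response to siRNA, against no treatment, was compared between the tagged clones, and 2 members stood out by different measures. Chac1 differed by the test of the difference (clone 14 minus clone 12, log2 -1.28, SE 0.19, edgeR adjusted p = 0.021), with a mean log2 difference from untreated of 0.33 in clone 12 and -0.95 in clone 14. Trib3 was above untreated in all 6 siRNA libraries of clone 12 and below it in all 6 of clone 14. Its difference of -1.56 (SE 0.34) had an unadjusted p of 0.000309 and did not pass adjustment over all genes (edgeR adjusted p = 0.144). All 6 libraries of a clone are set against the same untreated library.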

How the results depend on the processing

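Counts of called members depended on the clone as replicate block, and single calls on single libraries. Without the replicate block, leptomycin B called 1 member (5 with it), Life against SCR 1 (5) and Life against the other 4 siRNAs 1 (6). Every other comparison called 0, including the 6 siRNAs against untreated (20). DESeq2 called more: 8 for leptomycin B, 12 for SCR against untreated, 3 for FLAG and 3 for Nature against SCR, and 2 for FLAG and 10 for Qiagen against the other 4. Without the filter on low counts, Qiagen against SCR called 0, Life against SCR 2 and Nature against the other 4 called 2. Without the libraries over 2% Rn45s, an alternative added after seeing the data, the counts were 3 for Nature and 1 for Life against SCR, and 1 for HA, 5 for Qiagen and 0 for Life against the other 4. Leaving out 1 library at a time gave 4 to 6 for leptomycin B, 1 to 6 for SCR and 7 to 21 for the 6 siRNAs against untreated. Against SCR it gave 0 to 1 for FLAG, 1 to 4 for HA, 0 for Qiagen, 0 to 5 for Nature and 1 to 4 for Life. Against the other 4 it gave 0 to 2 for HA, 1 to 10 for Qiagen, 1 to 6 for Nature and 0 to 6 for Life, and in untagged clones 0 to 2. The comparisons of tagged minus untagged response and of the mCherry constructs, with 0 called members, stayed at 0 under the alternatives run. Of 810 refits of the 59 called member results, 0 changed direction and 201 lost the call, 56 of them without the block and 119 with a library left out. The cause was not tested. Each treatment of a clone has 1 library, which limits the size of change that can be called.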
